A study of Arabidopsis thaliana with 21 samples.

Results

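The 4 genes described here are TUB5 (AT1G20010), TRM22 (AT1G67040), TRM28 (AT5G03670) and IQD18 (AT1G01110), whose products are tubulin or belong to families that act on microtubules. They were selected on their log2 values in the strigolactone mutants max1, max2 and max3 of Arabidopsis thaliana, which were lower than in intact wild-type plants, so those differences are given as a description. Each gene was measured by 1 probe set that the probe annotation assigns to it alone, which makes 4 of the 13350 genes named in this way. In all, 22746 probe sets were tested. Of the 12 differences between a mutant and intact plants that chose the genes, 11 had passed an adjusted p of 0.05, and that of TUB5 in max3 had not.

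Microtubules are hollow filaments of alpha- and beta-tubulin. In growing plant cells they lie under the plasma membrane and guide the enzymes that lay down cellulose, and in dividing cells they form the preprophase band that marks the future wall. TUB5 encodes a beta-tubulin. TRM proteins carry a motif that binds TON1, and some of them recruit a TON1 and phosphatase complex to these arrays. IQD proteins bind calmodulin, the calcium sensor, through IQ motifs, and many of them lie on microtubules.

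The hypocotyl, which links root and rosette below the cotyledons, was taken from 2-week-old plants for 21 arrays in 7 groups of 3. Of these groups 4 were wild type (Col-0). Intact plants received only lanolin with below 10% ethanol, the carrier that all 7 groups shared. Decapitated plants lost the shoot tip, a main source of the hormone auxin. The group decapitated + IAA received 3 mg per mL of the auxin IAA after decapitation, and the NPA group received 3 mg per mL of NPA, an inhibitor of polar auxin transport. The max1, max2 and max3 mutants were labelled by gene without an allele or strain. MAX1 and MAX3 are enzymes of strigolactone synthesis, and MAX2 is needed for the response to strigolactones and karrikins. Each array held RNA of 120 to 150 hypocotyls taken 24 h after treatment, called biological replicates in the labels. In such bulk tissue, fewer cells of a type and less RNA per cell cannot be told apart.

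Values are the deposited log2 values, and the number of arrays limits their precision. Array medians lay between 6.11 and 6.35, and 29.9% of the probe sets stayed below 3.5, a level near background, in every array. A value below 3.5 gives only an upper limit. Of the marker genes, RCA of leaf chloroplasts was at 12.39 in intact plants and was called in none of 11 comparisons, and CLV3 of the shoot apex and EXPA7 of root hairs stayed near background in all groups, at 2.00 and 1.84 in intact plants. The vascular and epidermal marker genes had no probe set naming them alone.

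**Figure D1:**
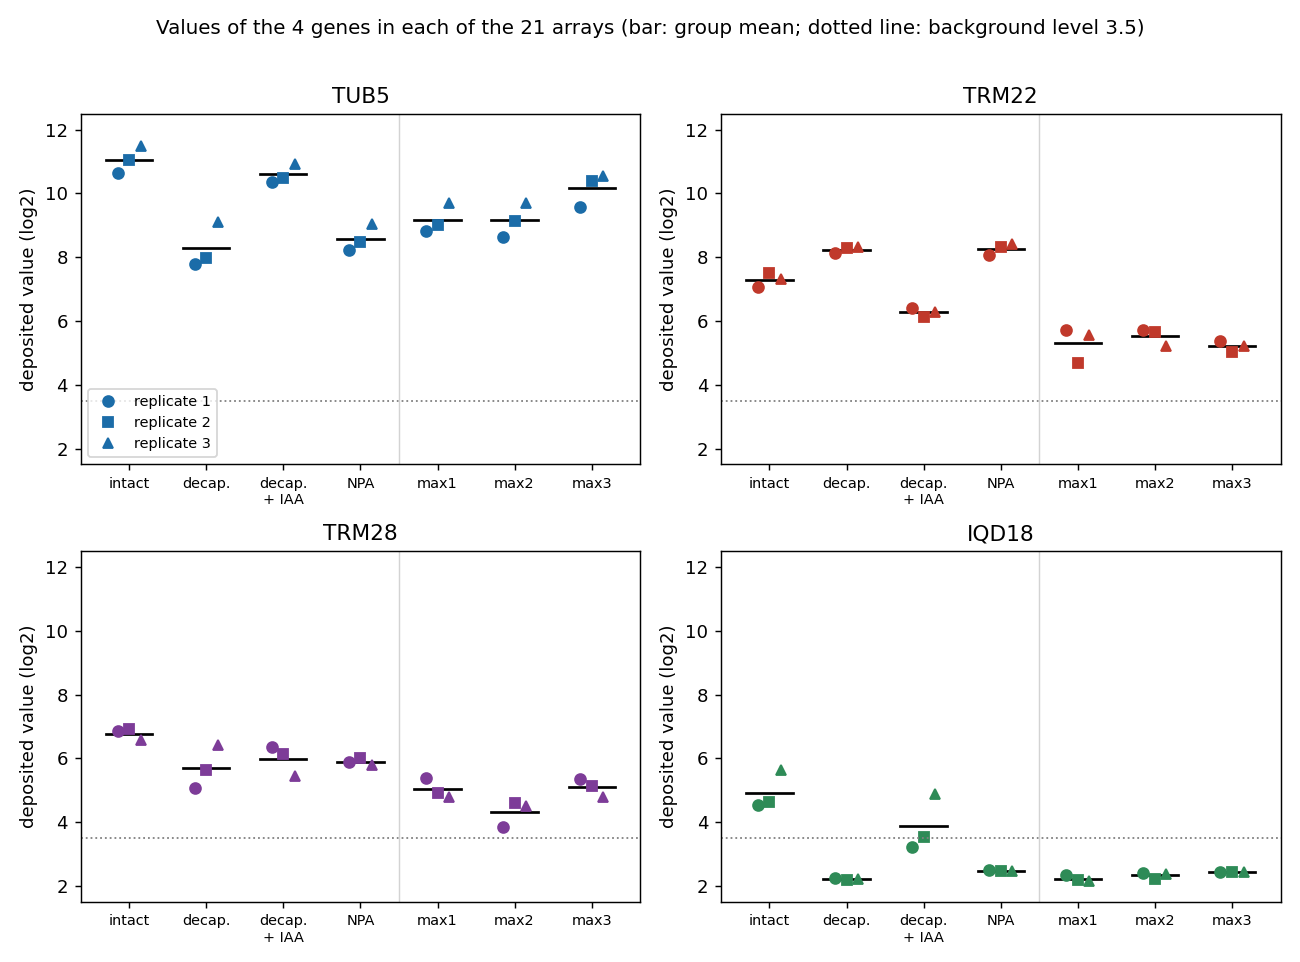
Deposited log2 value of TUB5, TRM22, TRM28 and IQD18 (vertical axis) in each of the 21 arrays, by group (horizontal axis) and replicate (circle, square and triangle). Bars are group means and the dotted line is the background level of 3.5. All 4 genes were lower in every mutant array than in every intact array, TRM22 alone was higher in decapitated and NPA plants, and IQD18 lay below 3.5 in 5 of the 7 groups.

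TUB5 was the gene whose level was lowest in decapitated wild-type plants and almost as high under IAA as in intact plants. It read 10.64, 11.05 and 11.49 in the 3 intact arrays. In max1 it read 8.82, 9.01 and 9.69, and in max2 it read 8.64, 9.15 and 9.72. Both mutants lay below all intact arrays, with a difference of -1.89 ± 0.39 (SE of the model, n = 3 per group) in each, or 3.70-fold and 3.71-fold. In max3, TUB5 read 9.59, 10.39 and 10.55. This mutant also lay below the intact arrays without overlap, with a difference of -0.88 ± 0.39 or 1.84-fold.

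Among the treated plants, TUB5 read 7.78, 7.97 and 9.09 after decapitation and 8.22, 8.47 and 9.04 with NPA. These levels were 6.88-fold and 5.60-fold below intact plants. With IAA on the stump it read 10.36, 10.49 and 10.94, a range that overlapped that of intact plants, with a difference of the means of -0.47 ± 0.39 that lay between -0.25 and -0.67 when 1 array was left out. The order of the means was intact, decapitated + IAA, max3, max1, max2, NPA and decapitated, and the ranges of every pair of neighbours in this order overlapped. The max1 and max2 arrays overlapped those of decapitated and of NPA plants, and the max3 arrays overlapped those of the IAA group.

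TUB5 differed between replicates in the same way in each group. Replicate 3 was the highest and replicate 1 the lowest array in 7 of 7 groups, with mean deviations from the group mean of 0.50 and -0.42. Per the labels, treatments of 1 replicate number were made at the same time. Part of the SE of TUB5 is therefore this spread between replicate numbers, and groups whose ranges overlap could still differ in every pair of the same number. Thus max1 lay above decapitated plants by 1.05, 1.04 and 0.60 and above NPA plants by 0.60, 0.54 and 0.65 in replicates 1, 2 and 3. Likewise max2 lay above decapitated plants by 0.86, 1.18 and 0.62 and above NPA plants by 0.42, 0.69 and 0.68. The max3 arrays differed from the IAA arrays by -0.77, -0.09 and -0.38, and the IAA arrays from the intact arrays by -0.28, -0.56 and -0.55. Only NPA minus decapitated, at 0.45, 0.50 and -0.05, and max1 minus max2, at 0.18, -0.15 and -0.02, changed sign between pairs among the neighbours in the order.

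TRM22 was the only one of the 4 genes whose level lay below that of intact plants in the mutants and above it after loss of the shoot tip. It read 7.07, 7.49 and 7.32 in the intact arrays. In max1 it read 5.71, 4.68 and 5.57, in max2 5.71, 5.65 and 5.22, and in max3 5.38, 5.04 and 5.21. The mutants thus overlapped each other and lay below every intact array, with differences of -1.98, -1.77 and -2.09 (each ± 0.21, SE of the model), or 3.94-fold, 3.41-fold and 4.25-fold.

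After decapitation TRM22 read 8.13, 8.29 and 8.31, and with NPA it read 8.07, 8.31 and 8.42. Both groups lay above every intact array, by 0.95 ± 0.21 and 0.97 ± 0.21 in the mean. With IAA it read 6.40, 6.14 and 6.29, below every intact array with a difference of -1.02 ± 0.21 and above every mutant array. TRM22 therefore had 4 levels whose arrays did not overlap. From the top these were NPA with decapitated, then intact, then decapitated + IAA, and last the mutants. The mutants differed from decapitated plants by -2.93 in max1, -2.72 in max2 and -3.03 in max3, which is 7.60-fold, 6.58-fold and 8.20-fold.

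TRM28 was lowest in max2 and differed little among the treated wild-type groups. It read 6.84, 6.91 and 6.56 in the intact arrays. In max1 it read 5.38, 4.91 and 4.78, in max3 5.34, 5.15 and 4.79, and in max2 3.85, 4.61 and 4.52. The differences of the means were -1.75, -1.68 and -2.45 (each ± 0.31) in max1, max3 and max2, or 3.36-fold, 3.21-fold and 5.46-fold. Every max2 array lay below every array of the other mutants.

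TRM28 read 5.06, 5.63 and 6.42 after decapitation, 5.87, 6.01 and 5.79 with NPA and 6.36, 6.13 and 5.45 with IAA. These 3 groups overlapped each other, and each lay below the intact arrays, with differences of -1.07, -0.88 and -0.79 (each ± 0.31). The decapitated replicates were uneven, with differences from the intact array of the same number of -1.78, -1.28 and -0.15. The max2 arrays lay below all arrays of the treated groups, whereas max1 and max3 overlapped the decapitated group.

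IQD18 had arrays above the background level of 3.5 in only 2 groups, all 3 of the intact plants and 2 of the 3 of decapitated plants given IAA. It read 4.52, 4.63 and 5.62 in the intact arrays and 3.22, 3.53 and 4.89 with IAA, ranges that overlapped, with a difference of the means of -1.04 ± 0.32. In pairs of the same replicate number IQD18 was lower with IAA in 3 of 3, at -1.30, -1.10 and -0.73, the first with its IAA array below 3.5. In the other 5 groups all 15 arrays lay between 2.15 and 2.50. Between those groups its values carry no order, and for them the level of the intact group can only be called at least 1.42 higher on the log2 scale, or at least 2.68-fold higher. The measured means were 2.23 in max1, 2.33 in max2, 2.43 in max3, 2.21 after decapitation and 2.48 with NPA, against 4.92 in intact plants.

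Counted together, 4 of 4 genes lay below the intact arrays without overlap in each mutant, against 11.6% of all probe sets in max1, 7.94% in max2 and 14.1% in max3. The share of all probe sets called lower at an adjusted p of 0.05 was 1.82% in max1, 1.47% in max2 and 1.02% in max3. Nothing is read from these counts, since these contrasts chose the genes. After decapitation 3 of the 4 lay below the intact arrays and TRM22 above them, where 16.5% of all probe sets lay below and 17.4% above. With NPA the same genes lay on the same sides, where the shares of all probe sets were 16.9% and 27.1%. With IAA only TRM22 and TRM28 lay below the intact arrays without overlap, against 12.8% of all probe sets. These comparisons share the intact arrays with the choice of the genes and were not tested.

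The difference between IAA and the plain stump uses neither intact nor mutant arrays. It was tested across all probe sets (limma, Benjamini-Hochberg adjustment over 22746 probe sets). Its SE and p rest on the spread within all 7 groups, so the arrays that chose the genes enter them. The same holds for the other tested comparisons. The comparison asks which transcripts differ when auxin is supplied to a decapitated plant. TUB5 rose by 2.32 ± 0.39 or 4.98-fold (adjusted p = 0.000423) and was higher in 3 of 3 replicate pairs. TRM22 fell by 1.97 ± 0.21 or 3.91-fold (adjusted p = 6.73e-06) and was lower in 3 of 3 pairs. IQD18 rose by 1.67 ± 0.32 (adjusted p = 0.00138) in 3 of 3 pairs. In pairs the differences were 0.98, 1.35 and 2.67, and without IAA replicate 3 the difference was 1.16 (adjusted p = 0.00194). All decapitated arrays and 1 of the 3 IAA arrays of IQD18 were below 3.5, so no fold is given. For IQD18 the adjusted p was 0.0748 when only these 2 groups were fitted. Its SD was 0.89 with IAA and 0.61 in intact plants. In the 5 groups at background it lay between 0.0076 (max3) and 0.103 (max1), and all 7 groups enter the shared SE. TRM28 differed by 0.28 ± 0.31 (adjusted p = 0.512), with a 95% interval from -0.38 to 0.94. Of the 4 genes, 2 were thus called higher, where 11% of all probe sets were, and 1 was called lower, where 11.9% were.

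**Figure D2:**
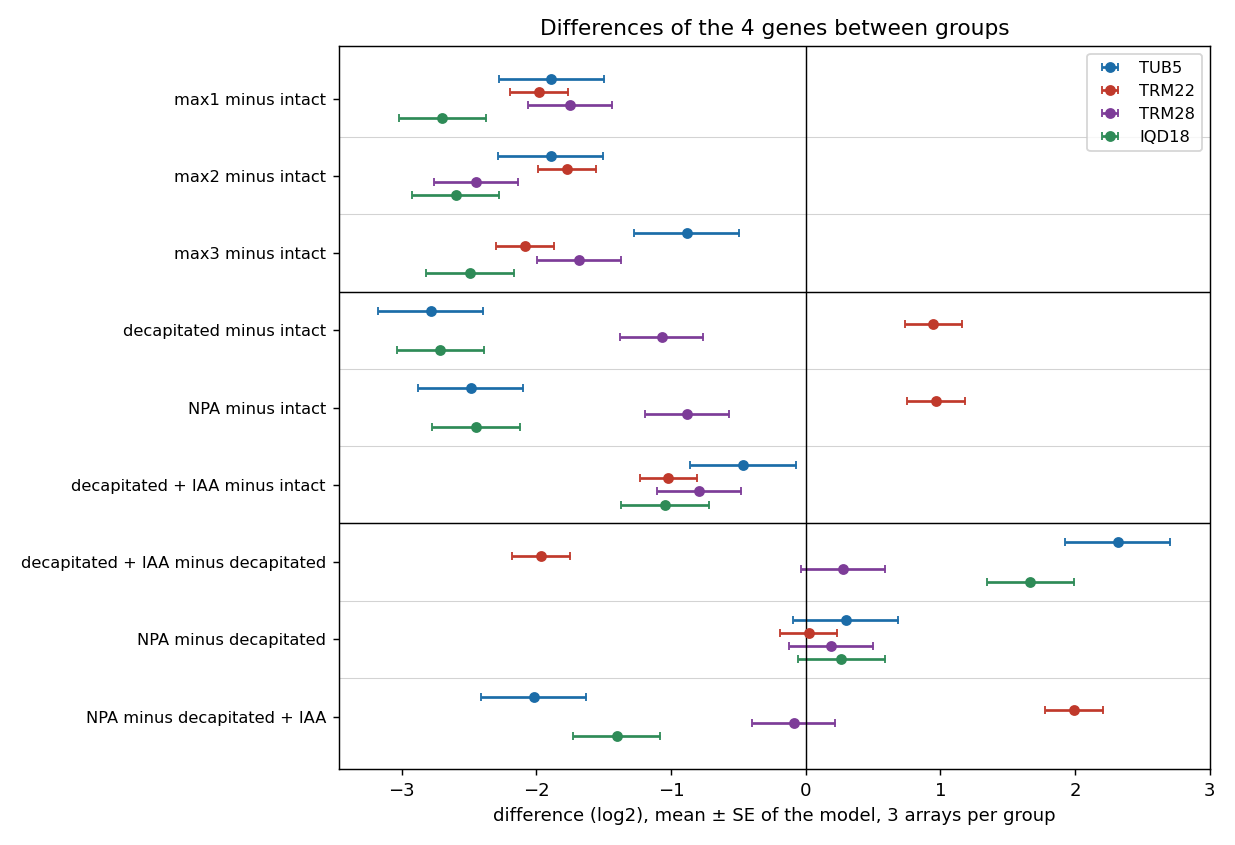
Differences of the group means of TUB5, TRM22, TRM28 and IQD18 on the log2 scale (horizontal axis) with the SE of the model as bars, for 9 comparisons (vertical axis) of 3 arrays with 3. The upper 3 comparisons chose the genes and the middle 3 share the intact arrays; in the lower 3, which were tested, TUB5 and IQD18 lie on the opposite side of 0 from TRM22 wherever the IAA group is compared, and all 4 genes lie near 0 in NPA minus decapitated.

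NPA and decapitation are both known to reduce the auxin that reaches the hypocotyl from the shoot tip, and the 4 genes were not called between them. NPA minus decapitated was 0.30 for TUB5 (95% interval -0.54 to 1.13, adjusted p = 0.88), 0.02 for TRM22 (-0.44 to 0.48, adjusted p = 0.998) and 0.19 for TRM28 (-0.47 to 0.85, adjusted p = 0.91). For IQD18 both groups were at background. In this comparison limma called 0 of the 4 at an adjusted p of 0.05 and 0 at an unadjusted p of 0.05, where 2.35% of all probe sets were called.

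Against decapitated plants given IAA, NPA plants had TUB5 lower by a difference of -2.02 ± 0.39 (4.06-fold, adjusted p = 0.00122) in 3 of 3 pairs. TRM22 was higher by 1.99 ± 0.21 (3.97-fold, adjusted p = 5.68e-06) in 3 of 3 pairs. IQD18 differed by -1.40 ± 0.32 (adjusted p = 0.00453) in 3 of 3 pairs. All its NPA arrays and 1 of the 3 IAA arrays were below 3.5, and without IAA replicate 3 the difference was -0.90. The adjusted p of IQD18 was 0.0922 when only these 2 groups were fitted. TRM28 differed by -0.09 (95% interval -0.75 to 0.57, adjusted p = 0.841). The share of all probe sets called was 13.6% lower and 22% higher.

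Among the mutants, the 2 synthesis mutants max1 and max3 were compared with each other, and max2 with the mean of both. The mutant arrays also chose the genes, so here they supply the differences as well as the spread. These tests are therefore not independent of the choice, in which TUB5 passed an adjusted p of 0.05 in max1 and not in max3. TUB5 was lower in max1 than in max3 by a difference of -1.0 ± 0.39 (adjusted p = 0.64), in 3 of 3 pairs of the same replicate number, at -0.77, -1.39 and -0.86. With the replicate number as a block in the model, which takes up the spread of TUB5 between replicate numbers, the SE was 0.14 and the adjusted p was 0.00437. The 4 genes thus gave 0 calls by limma without the block and 1 with it, and 1 at an unadjusted p of 0.05, where 0.361% of all probe sets were called without the block and 0.633% with it. TRM22 differed by 0.11 between max1 and max3 and TRM28 by -0.07 (95% intervals -0.35 to 0.57 and -0.73 to 0.59, adjusted p = 1.0 for both). TRM28 was lower in max2 than in the mean of the other mutants by a difference of -0.73 ± 0.27 in 3 of 3 pairs. The 95% interval was from -1.31 to -0.16, and the difference did not pass the adjustment over all probe sets (adjusted p = 0.822). The pairs were uneven, at -1.51, -0.42 and -0.27, and over left-out arrays the difference ranged from -0.88 to -0.49. TUB5 differed by -0.51 (95% interval -1.23 to 0.21) and TRM22 by 0.26 (-0.13 to 0.66, adjusted p = 0.977 for both). TUB5 was lower in 3 of 3 pairs, at -0.57, -0.55 and -0.41. With the block its SE was 0.12 and its adjusted p was 0.193. Without the block limma called 0 of the 4 genes in this comparison, with TRM28 alone at an unadjusted p of 0.05, and 0.171% of all probe sets.

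The 4 genes varied among themselves in different ways over the arrays. Pearson's r between TUB5 and IQD18 was 0.77 over the 21 arrays and 0.92 over the 12 wild-type arrays, and between TUB5 and TRM22 it was -0.32 and -0.75. These values mainly hold the differences between groups, and with the group means removed r was 0.32 for TUB5 and IQD18 and 0.01 for TUB5 and TRM22. IQD18 adds little within groups, since most of its arrays are at background.

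To name the genes most like each of the 4, r was taken over the 21 arrays with each of 2656 probe sets that name 1 gene and have an SD of at least 0.5. All of these arrays also enter the choice or the tests above, and r is a description. For TUB5 the nearest were AT1G22490 (r = 0.93), a gene of the bHLH transcription factor family with the synonym bHLH94, AT5G66590 (r = 0.92) and AT1G03620 (r = 0.91). AT1G22490 was also the nearest to IQD18 (r = 0.90), before AT1G12845 (r = 0.88) and AT3G09730 (r = 0.84). Its group means were 8.61 in intact plants, 6.39 after decapitation, 8.30 with IAA, 6.27 with NPA and 6.65, 6.64 and 7.21 in max1, max2 and max3. It thus followed TUB5 also in the smaller difference of max3.

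For TRM22 the nearest were AT4G04630 (r = 0.96), AT1G74910 (r = 0.95) and MGL (r = 0.95), the methionine gamma-lyase that breaks down methionine. MGL was at 6.03 in intact plants, 8.84 after decapitation, 6.20 with IAA and 9.45 with NPA. In max1, max2 and max3 it was at 3.95, 4.70 and 4.21. Its differences from intact plants were larger than those of TRM22 after decapitation and with NPA, and of similar size in the mutants. With IAA the mean of MGL was not below that of intact plants, whereas TRM22 was. For TRM28 the values of r were lower, at 0.82 for AT5G17700, 0.80 for AT2G31810 and 0.79 for AT3G26550. AT5G17700 was also the nearest to the mean of the 4 genes after each was standardised (r = 0.90), followed by PTL (r = 0.85), AT2G31810 (r = 0.85), AT3G26550 (r = 0.84) and AT1G30160 (r = 0.84).

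PTL, or PETAL LOSS, encodes a trihelix transcription factor known from flower development, and it is the protein-coding gene next to TRM28 in the reference annotation. The neighbours of the 4 genes were looked up after these values had been seen. PTL was at 9.89 in intact plants, 8.40 after decapitation, 8.78 with IAA, 8.54 with NPA and 8.29, 8.08 and 8.65 in max1, max2 and max3. Its lowest mean was therefore in max2, like that of TRM28, and r between PTL and TRM28 was 0.78 over 21 arrays. PTL differed from intact plants by -1.49 after decapitation, -1.60 in max1 and -1.81 in max2. TRM28 differed by -1.07, -1.75 and -2.45. The gene on the other side of TRM28, AT5G03660, was at 9.98 in intact plants and between 9.75 and 9.99 in the mutants.

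The gene next to TRM22, AT1G67050, was like it above the intact level after decapitation and with NPA. With IAA it lay above the intact level, where TRM22 lay below, and in the mutants it stayed near it. It was at 6.65 in intact plants, 9.91 after decapitation, 7.36 with IAA and 9.83 with NPA, and at 6.79, 6.82 and 7.17 in max1, max2 and max3. AT1G01100, beside IQD18, was between 14.15 and 14.41 in all 7 groups. The neighbours of TUB5 and the remaining neighbours of TRM22 and IQD18 had no probe set naming them alone.

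**Figure D3:**
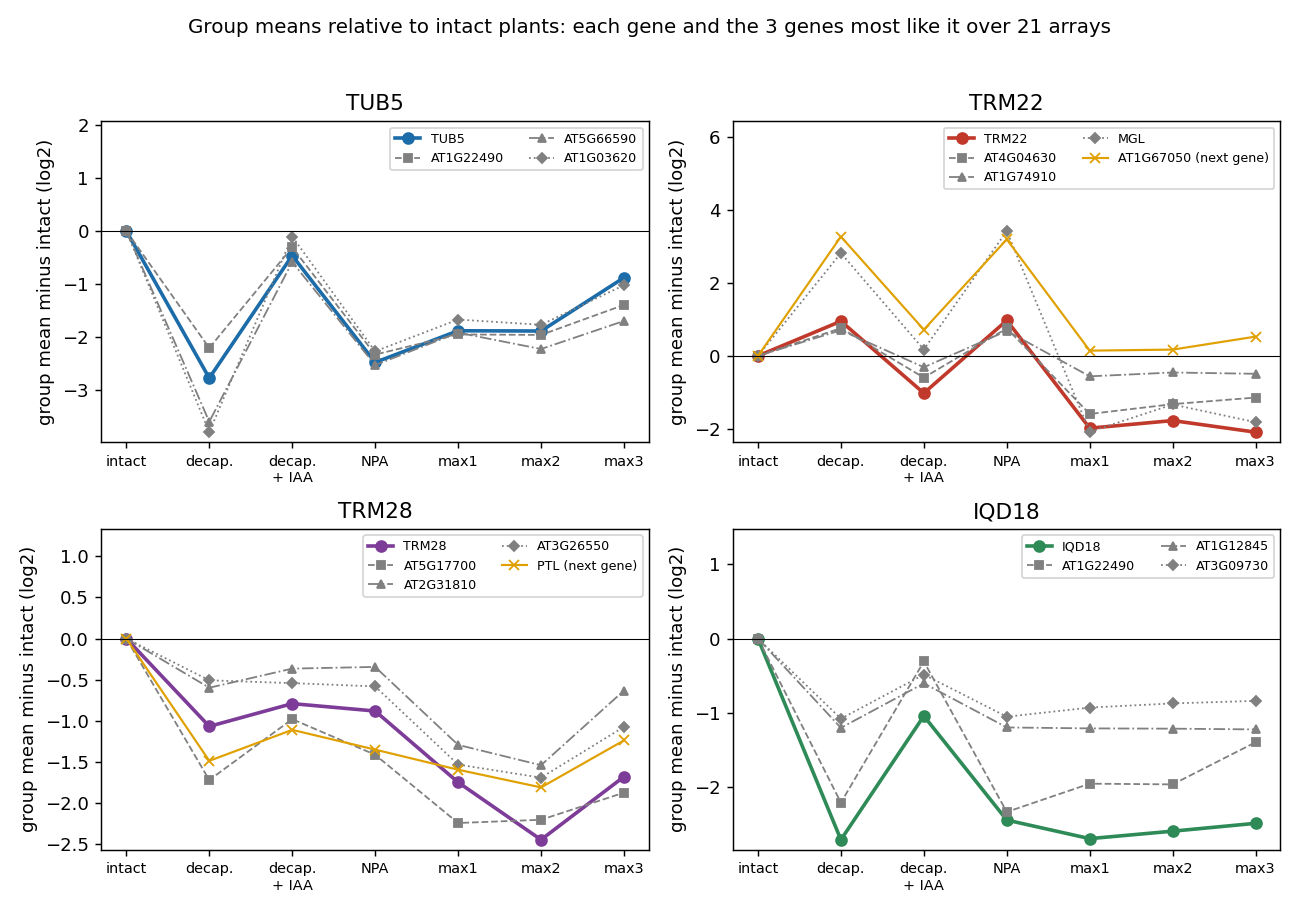
Group means of TUB5, TRM22, TRM28 and IQD18 minus the mean of intact plants on the log2 scale (vertical axis) in the 7 groups (horizontal axis, coloured lines), with the 3 genes of highest r over 21 arrays (grey lines) and, for TRM22 and TRM28, the next gene in the reference annotation (yellow lines). AT1G67050 lies above intact with TRM22 after decapitation and with NPA and near intact in the mutants, whereas PTL lies below intact in all 6 other groups, as TRM28 does.

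Other genes of the microtubule families were taken from lists of tubulins, TRM and TON1 proteins, IQD proteins, microtubule-associated proteins and kinesins. A probe set naming the gene alone existed for 6 of 16 tubulins, 13 of 19 TRM and TON1 genes, 14 of 35 IQD genes, 6 of 35 microtubule-associated genes and 2 of 6 kinesins. Of these 41 genes, 10 had no value of 3.5 or more in any array. The 41 exclude TUB5, TRM22, TRM28 and IQD18, which were chosen as lower in the mutants. A lack of lower calls among the 41 is thus partly set by that choice. It is given as a description. In the mutants limma called 0 of 41 lower and 0 higher than in intact plants, where 3.74% of all probe sets were called in max1, 3.12% in max2 and 2.02% in max3. At an unadjusted p of 0.05, 2 were lower and 4 higher in max1, 3 and 2 in max2, and 2 and 0 in max3. With array quality weights 3 were called higher in max1 (IQD24, IQD33 and TRM15) and 1 in max2 (TRM15). The median difference of the 41 genes was -0.03, -0.01 and -0.03 in max1, max2 and max3, and that of all probe sets -0.03, -0.02 and -0.03.

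Among the other tubulins, TUB1 differed from intact plants by -0.54, -0.63 and -0.76 in max1, max2 and max3 (adjusted p = 0.336, 0.316 and 0.175), where TUB5 differed by -1.89, -1.89 and -0.88. Among the other TRM genes, TRM15 had the smallest adjusted p, with differences of 0.40 in max1 and 0.44 in max2 (adjusted p = 0.142 and 0.11). The other IQD genes with the smallest adjusted p were near background. IQD24 (adjusted p = 0.141 in max1) was below 3.5 in every array. IQD26 (adjusted p = 0.142 in max2) was below 3.5 in every array of the mutants and above it in 1 intact array, with means of 3.34 in intact plants and 3.10, 2.87 and 3.06 in max1, max2 and max3. IQD33 (adjusted p = 0.173 in max1 and 0.166 in max2) read 2.53, 2.48 and 2.53 in intact plants, 3.70, 2.53 and 4.76 in max1 and 4.28, 2.83 and 4.09 in max2. Its intact arrays and replicate 2 of both mutants were below 3.5, and the other arrays of both mutants above it.

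After decapitation 21 of the 41 genes were called lower and 3 higher, or 51.2% and 7.32%, where 13.4% and 12.8% of all probe sets were. Subtracting the median of each array gave 21 lower and 7 higher. The median of the 41 genes was -0.53 and that of all probe sets 0.03. Of the 6 tubulins 5 fell with TUB5, among them TUB6 at -1.60 ± 0.11, TUA6 at -1.59 ± 0.12 and TUB1 at -1.51 ± 0.26. TUA1, an alpha-tubulin, rose by 0.72 ± 0.17. Of the 13 TRM and TON1 genes 6 fell, among them TON1B at -0.83 ± 0.18, and TRM26 rose. TRM31 also fell, with its decapitated arrays below 3.5, so that its intact level can only be called at least 1.04 higher. Of the 14 IQD genes 4 fell, among them IQD22 at -1.78 ± 0.54 and IQD30 at -1.49 ± 0.16, and 1 was called higher, IQD27, whose values were all below background. WDL3, a microtubule-binding protein known from hypocotyl growth, fell by 2.80 ± 0.20, and KINESIN-12B, a motor of the division apparatus, fell by 2.10 ± 0.31.

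TRM26 was the family member that resembled TRM22 after decapitation and with NPA, where both were higher than in intact plants. It was at 4.76 in intact plants and 7.15 after decapitation, a rise of 2.39 ± 0.20, and it rose by 2.50 with NPA. Under IAA it was lower than on the plain stump by a difference of -2.62 ± 0.20, where TRM22 differed by -1.97. Against intact plants TRM26 under IAA differed by -0.23 and was not called, where TRM22 differed by -1.02. In the mutants TRM26 differed from intact plants by 0.13, -0.25 and 0.03 and was not called, where TRM22 differed by -1.98, -1.77 and -2.09.

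With NPA 20 of the 41 genes were called lower and 2 higher than in intact plants, against 13.9% of all probe sets in each direction, and 20 and 9 with array medians subtracted. With IAA on the stump 17 of the 41 were called higher and 3 lower than in decapitated plants, against 11% and 11.9% of all probe sets, and 16 and 6 with array medians subtracted. Leaving out decapitated replicate 1, or IAA replicate 2 or 3, left 10 called higher. The tubulins TUA6, TUB7, TUB6 and TUB1 rose with TUB5 under IAA, by 1.17, 0.99, 0.97 and 0.85. IQD22 and IQD30 rose with IQD18, by 1.64 and 1.24. With NPA, however, IQD22 differed from intact plants by only -0.06 and was not called, where IQD30 differed by -1.22. Against intact plants, IAA-treated stumps had 10 of the 41 lower and 1 higher, where 4.78% and 3.89% of all probe sets were. Without intact replicate 3, or without IAA replicate 3, 6 were called lower.

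**Figure D4:**
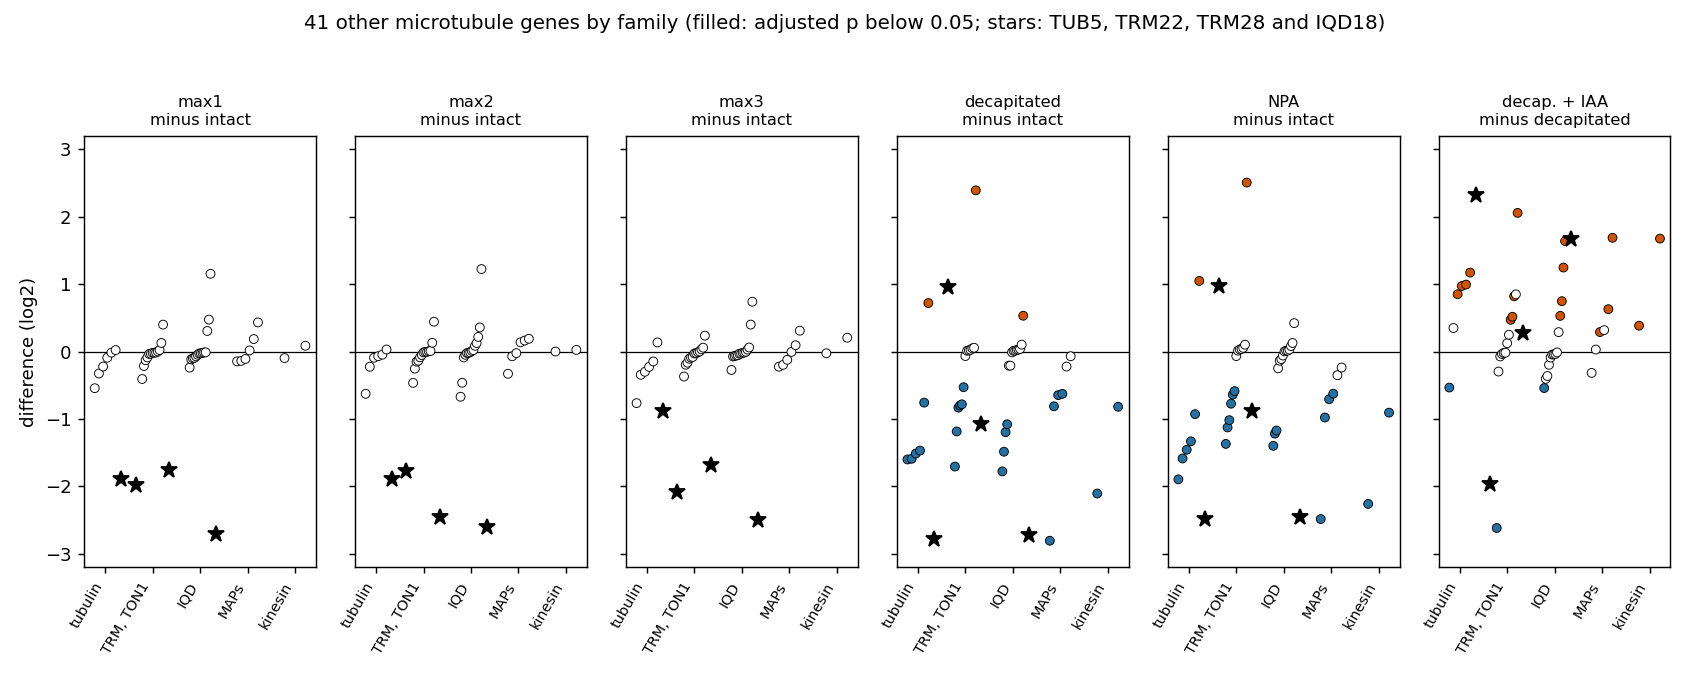
Differences on the log2 scale (vertical axis) of the 41 other microtubule genes, 1 point per gene, by family (horizontal axis; MAPs are microtubule-associated proteins) in 6 comparisons. Filled points passed an adjusted p of 0.05, blue lower and orange higher. Stars are TUB5, TRM22, TRM28 and IQD18, which were chosen as lower in the mutants and are not among the 41. In the 3 mutants no point is filled, while 21 of 41 are filled blue in decapitated plants and 20 of 41 in NPA plants.

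The few cell division and cellulose genes measured outside the microtubule lists were AUR1, AUR2 and COB. In direction they moved with TUB5 and IQD18 after decapitation, with NPA and with IAA on the stump. AUR1 and AUR2, Aurora kinases of dividing cells and the only 2 of 8 cell division genes with a probe set of their own, fell after decapitation with differences of -2.15 and -3.16, and with NPA with differences of -3.70 and -3.45. They rose with IAA on the stump by 1.67 and 2.52. Between NPA and decapitated plants limma called AUR1 lower, by a difference of -1.54 ± 0.35 (adjusted p = 0.0292), where TUB5 and IQD18 were not called. In the mutants AUR1 and AUR2 were not called, with differences of -0.45, -0.25 and -0.16 for AUR1 and -0.24, -0.29 and -0.06 for AUR2. COB, a membrane-anchored protein needed for oriented cellulose deposition and the only 1 of 9 cellulose genes measured alone, was called lower in max1 by a difference of -0.38 ± 0.08 (adjusted p = 0.0183) and in max2 by -0.38 ± 0.08 (adjusted p = 0.0204). In max3 COB differed by -0.17 (adjusted p = 0.40). It fell by 1.71 after decapitation and rose by 1.14 with IAA. With IAA it was still called lower than in intact plants by limma, at -0.56 ± 0.08 (adjusted p = 0.00046). The part of cell division in the levels of the 4 genes was not tested.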

How the data were processed

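RNA of 21 hypocotyl samples was hybridised to 1-colour ATH1 arrays. The authors deposited log2 values per probe set, and the submitters' processing notes name RMA, GCRMA and R 3.2.2 without their roles. No source used here gives the genome build. Of 22810 probe sets, 64 controls were left out. Genes were named for the 13513 probe sets that the probe annotation assigns to 1 gene, and symbols and neighbouring genes came from the RefSeq table. A listed gene was represented by the probe set naming it alone with the highest mean.

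Group means of all 21 arrays were fitted with limma 3.58.1 in R 4.3.3 (14 residual and 1.03 prior degrees of freedom), with Benjamini-Hochberg adjustment over 22746 probe sets per comparison at 0.05. The code was tested on simulated data. The members and lists were chosen with earlier results of these data known. Named genes were the 4 members, up to 4 called genes per list (or 2 with the smallest p), and those most correlated with a member. TRM26, AUR1, AUR2, COB and the neighbours were described after their values were seen.

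Per the labels, treatments of 1 replicate number were simultaneous, so the numbers pair the samples. Residuals of arrays with the same number correlated with a median of 0.361 (0.427, 0.127 and 0.401 for numbers 1, 2 and 3), and with different numbers of -0.123. The block entered as an alternative, beside a fit of only the groups compared, array medians subtracted, a second quantile normalization, array quality weights, a minimum change, and others. Promoter and protein sequences were not analysed here.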

Additional observations from a re-analysis of the deposited data

How the results depend on the processing

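The calls of the 4 genes held under the alternatives, left-out arrays included, with 3 exceptions: TUB5 in max1 minus max3, at -1.0 with the replicate block (adjusted p = 0.00437), and IQD18 in a fit of only the groups compared, at 1.67 for IAA minus decapitated (adjusted p = 0.0748; 0.000421 to 0.00607 over left-out arrays) and -1.40 for NPA minus IAA (adjusted p = 0.0922; 0.00122 to 0.0154). That fit has fewer samples, and it leaves out other groups in which IQD18 lay at background and varied little. The cause was not tested. The block changed no other call of a member. The sign turned in 16 cases, of which 0 passed the threshold. TRM28 in NPA minus IAA was 0.0076 with array medians subtracted and 0.038 after a second quantile normalization, TRM28 in max1 minus max3 was 0.12 with array weights, and IQD18 in max2 minus max1 and max3 was 0.0051 with array medians subtracted. Over left-out arrays, TRM28 ranged from -0.044 to 0.63 in IAA minus decapitated, -0.13 to 0.54 in NPA minus decapitated, -0.36 to 0.099 in NPA minus IAA and -0.24 to 0.056 in max1 minus max3. TRM22 ranged from -0.054 to 0.12 in NPA minus decapitated and -0.085 to 0.43 in max1 minus max3, and IQD18 from -0.041 to 0.050 in max2 minus max1 and max3. Described differences kept their sign, and in IAA minus intact ranged over left-out arrays from -0.67 to -0.25 for TUB5, -1.55 to -0.69 for IQD18 and -0.98 to -0.53 for TRM28.

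Counts among the 41 other genes moved more. With only the groups compared, 1 was lower in IAA minus decapitated and 3 in IAA minus intact. Array medians subtracted, which moved the median of all probe sets by 0.11 after decapitation and 0.13 with NPA, gave 7 higher after decapitation, 9 with NPA, 2 in IAA minus intact and 6 lower in IAA minus decapitated. A second quantile normalization and array weights each gave 2 higher in IAA minus intact, and weights gave 3 higher in max1 and 1 in max2. A minimum change of 1, which can only remove calls, left 12 lower and 1 higher after decapitation, 12 lower with NPA, 2 lower and 0 higher in IAA minus intact, and 1 lower and 6 higher in IAA minus decapitated. Leaving out 1 array gave 10 to 16 higher in IAA minus decapitated, 0 to 1 higher and 6 to 9 lower in IAA minus intact, 0 to 2 higher in max1 (2 without max1 replicate 2) and 0 to 1 higher in max2 (1 without max2 replicate 2). Signal near background limits IQD18 in 5 groups and 10 of the 41 genes.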
